A study of Vitis vinifera with 219 samples.

Results

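The courses of 6 genes of fruit softening are described here, among the 29971 gene IDs of a transcript table of ripening grape berries. They were chosen by ID, for their known part in loosening the cell wall: 1 xyloglucan endotransglucosylase/hydrolase (XTH), VIT_06s0061g00550; 3 expansins, VIT_13s0067g02930, VIT_14s0108g01020 and VIT_17s0053g00990, called below by the chromosome in their ID (13, 14 and 17); 1 polygalacturonase, VIT_08s0007g08330; and 1 pectate lyase, VIT_05s0051g00590. All 6 IDs were in the table. Berries of 2 wine grape cultivars (Vitis vinifera) were followed from green fruit to harvest in 2012, 2013 and 2014. Cabernet Sauvignon was clone FPS 8 on 5C rootstock, planted in 1997, and Pinot noir was clone FPS 23 on Freedom rootstock, planted in 2001. Both grew near Modesto in California, all vines used here were unthinned, and no group was treated. Each library held pericarp (skin and flesh, the seeds removed during grinding) of 60 berries from 6 clusters. Cultivar cannot be told apart from clone, rootstock, vine age or vine block. The libraries formed 73 groups of 1 cultivar, 1 season and 1 sampling day, with 3 libraries in each, and the 6 combinations of cultivar and season are called cultivar-seasons.

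As background, a grape softens when the walls of its flesh cells loosen, which begins at about the time that sugar rises and before the skin colours. In the wall, cellulose fibres are tethered by xyloglucan and embedded in pectin. XTH enzymes cut and rejoin xyloglucan chains, expansins loosen the bonds between cellulose and xyloglucan without cutting either, and polygalacturonase and pectate lyase cleave the backbone of demethylated pectin. Expansins and XTHs also act when young organs grow by cell expansion.

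Levels are given in RPKM as the authors deposited them, a unit that corrects read numbers for gene length and library depth. Levels can therefore be compared between genes, but the number of reads behind a value is unknown. Fewer cells that express a gene and less of its RNA per cell cannot be told apart in these pooled berries, and reads from near-identical family members or from the other strand may be included. Day 0 is the labelled day of veraison, the start of colouring. The comparisons used 6 windows, each holding 1 sampling of every cultivar-season and so 18 libraries. The window called before onset covers day -18 to -13 and the one called onset day -9 to -6. The others are veraison itself, day 7 to 11, day 21 to 22 (day 21 for short) and day 42 to 43 (day 42). A gene was called where limma gave an adjusted p (Benjamini-Hochberg, 21425 genes) below 0.05 and the change on the scale log2(RPKM + 1), which understates changes of low genes, was at least 1. Except where cultivar-season means served as the replicates, the limma p-values rest on the spread between the 3 libraries of a sampling. They do not cover the spread between seasons. All 6 softening genes passed the filter on low values (at least 1 RPKM in at least 3 libraries).

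The column sums of RPKM ranged from 807469 to 1192350, and the lowest correlation between replicates was 0.952. Anthocyanin genes checked the labelled stage: GST4 (VIT_04s0079g00690), a glutathione S-transferase of pigment transport, was at 0 to 1.22 RPKM in the 18 libraries before onset and at 451 to 1192 RPKM at day 21. In all, 4 libraries carried marker genes of the other cultivar, the 3 of Cabernet Sauvignon 2014 at day -23 and replicate 2 of Pinot noir 2014 at day -14. A set of 13 genes near 0 split the libraries into 2 sets. The smaller set of 88 holds all of 2014, Cabernet Sauvignon 2013 from day 43 on and replicate 1 of Cabernet Sauvignon 2013 at day -13, so a difference of 2014 from the earlier seasons cannot be told apart from the library set. Replicates 1 and 3 of Pinot noir 2012 at day -28 resembled the day -9 libraries (mean correlation 0.954) more than the day -18 libraries did (0.922). Leaving out the 4 libraries with the other cultivar's markers, or replicate 1 of Cabernet Sauvignon 2013 at day -13, changed no call of the 6 genes in the comparisons of windows, and the day -28 libraries enter no window.

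XTH was low in green berries and was among the most abundant transcripts of the ripening berry. Before onset its level had a median of 1.46 RPKM, from 0.0722 to 50.1 (mean 8.33 ± 13.8, SD, n = 18). At day 21 the median was 2941 RPKM, from 1819 to 5154 (mean 3415 ± 1051, SD, n = 18). The windows did not overlap. The log2 change was 9.63 (SE 0.33, limma adjusted p = 1.70e-62), the fourth highest of all genes tested. At veraison its mean of 3357 RPKM ranked 23 among the 29971 genes.

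All but 1 of the 6 genes rose over this ripening change, against 5.62% of all genes called higher and 18.9% called lower. The median log2 change was 5.16 over the 6 genes and -0.28 over all genes tested. The 5 that rose were called higher in each of the 6 cultivar-seasons, for which the shares of all genes are not given here. Their calls held when the 6 cultivar-season means served as the replicates (limma adjusted p from 2.10e-06 to 2.99e-04).

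**Figure D1:**
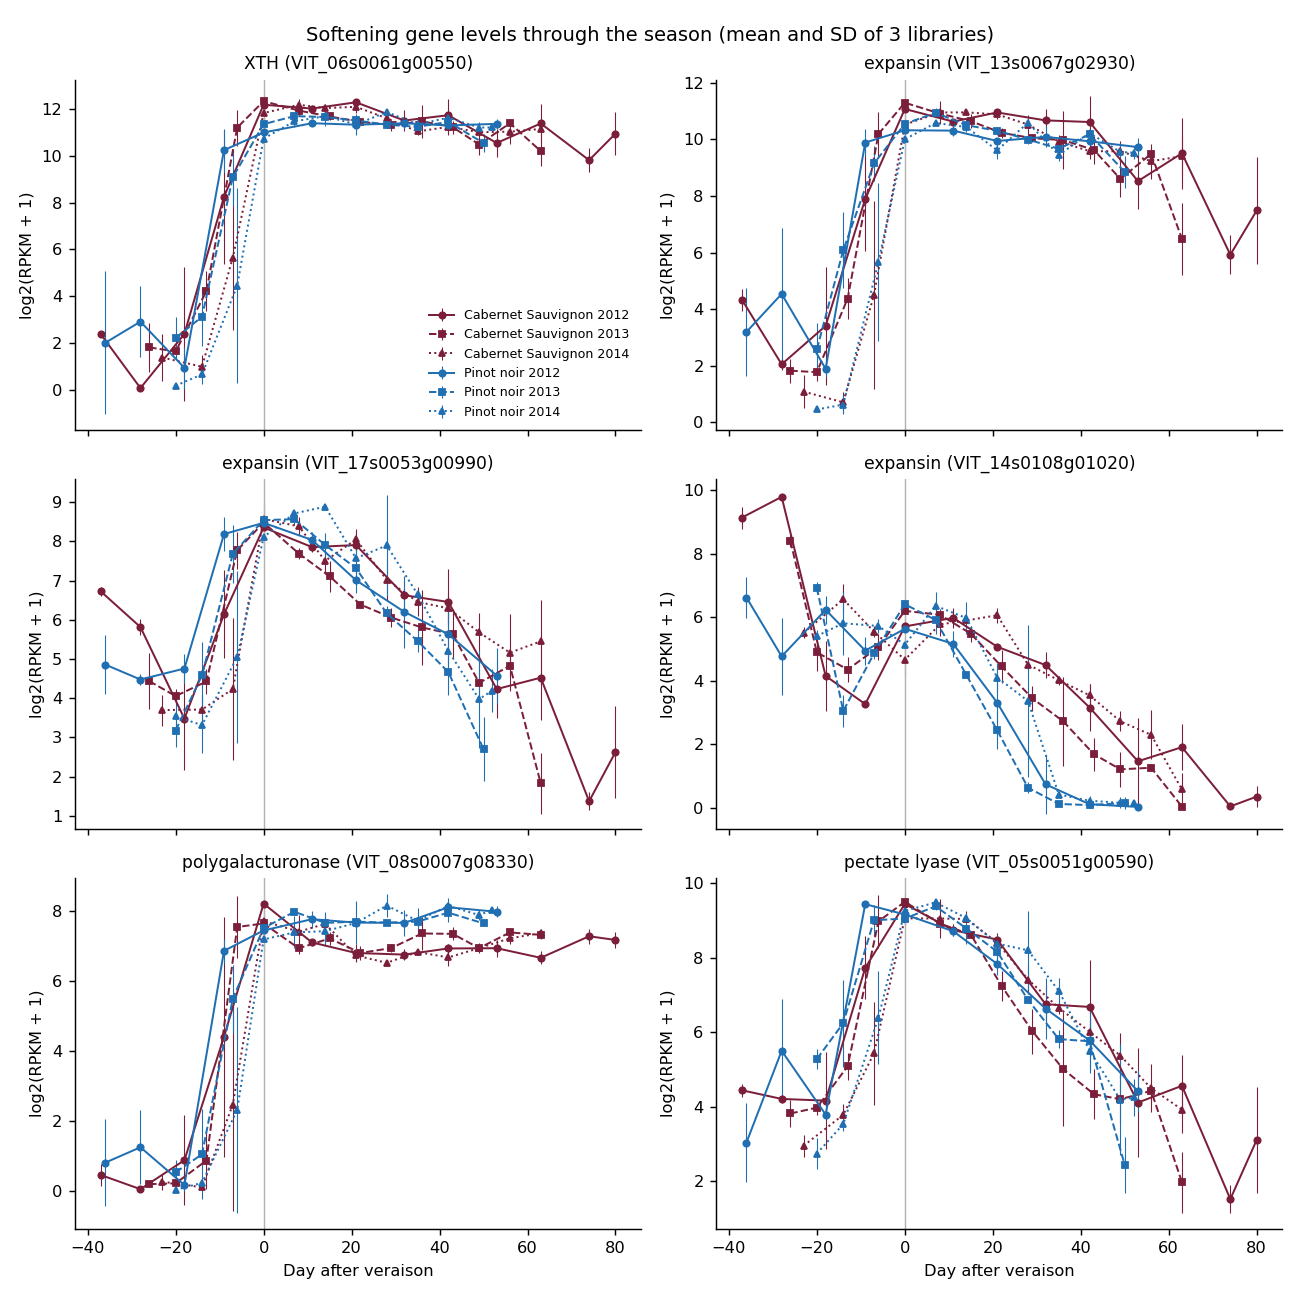
Level of each softening gene, as log2(RPKM + 1), against the day after veraison, with 1 line per cultivar and season. Points are means and bars are SDs of 3 libraries. XTH, polygalacturonase and the chromosome 13 expansin rose before day 0 and were still high at day 42, pectate lyase and the chromosome 17 expansin rose and then fell, and the chromosome 14 expansin was highest in the youngest Cabernet Sauvignon berries of 2012 and 2013.

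The 3 expansins followed 3 different courses. The chromosome 13 expansin followed XTH. Before onset it had a median of 3.12 RPKM, from 0.264 to 166, and at day 21 a median of 1198 RPKM, from 624 to 2071, with no overlap (log2 change 7.47, SE 0.29, limma adjusted p = 2.28e-56). Its rise ranked 19 among all genes tested, and at veraison its mean level of 1668 RPKM ranked 39.

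The chromosome 17 expansin started higher and rose less. It had a median of 16.8 RPKM before onset, from 4.64 to 43.5, and of 176 at day 21, from 79.9 to 329.8, again with no overlap (log2 change 3.33, SE 0.22, limma adjusted p = 3.38e-31). Its highest window was veraison, at 348 ± 59.6 RPKM (SD, n = 18). In the youngest Cabernet Sauvignon berries of 2012 it was also expressed, at 98.8, 101 and 115 RPKM at day -37. All 3 of those libraries were above every library of the before-onset window.

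Of the 6 genes, the chromosome 14 expansin had the highest level in the youngest berries of 2012. In Cabernet Sauvignon of 2012 its 3 libraries held 731, 533 and 456 RPKM at day -37. At day -28 they held 893, 845 and 913 RPKM. At day -18 they held 6.67, 20.6 and 32.6 RPKM. The last of these steps was a fall (log2 change -5.64, SE 0.45, limma adjusted p = 1.76e-22; 4.67% of all genes were called lower in that step), and the libraries of the 2 days did not overlap. A fall also came between day -26 and day -20 in 2013, from 335, 380 and 297 RPKM to 18.7, 28.2 and 44.4 (log2 change -3.50, SE 0.45, limma adjusted p = 6.82e-10; 0.938% of all genes called lower). In Pinot noir of 2013 it went from 133, 127 and 104 RPKM at day -20 to 6.01, 5.53 and 11.3 at day -14 (log2 change -3.88, SE 0.45, limma adjusted p = 5.36e-12; 2.41% called lower). In Pinot noir of 2012 the libraries held 76.0, 163 and 73.9 RPKM at day -36, 14.6, 71.0 and 17.0 at day -28 and 80.3, 52.9 and 95.5 at day -18. The low values at day -28 are those of replicates 1 and 3, the libraries that resembled later berries. Replicate 2, at 71.0, lay within the range of day -18. In 2014 the first samplings were lower, at 39.5 to 50.2 RPKM at day -23 in the libraries labelled Cabernet Sauvignon, which carry Pinot noir markers, and at 35.2 to 46.3 at day -20 in Pinot noir. Later levels of 2014 were above these, at 116, 63.4 and 111 RPKM at day -14 in Cabernet Sauvignon and 56.9, 103 and 89.8 at day 7 in Pinot noir.

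Around veraison this expansin was at 52.9 ± 22.7 RPKM at day 0 and 60.8 ± 19.9 at day 7 to 11 (SD, n = 18 each). The step from onset to veraison was called higher in Cabernet Sauvignon of 2012 (2.45) and 2013 (1.14) and in Pinot noir of 2013 (1.55). It was not called in Pinot noir of 2012 (0.69), nor in Cabernet Sauvignon (-0.88) and Pinot noir (-0.59) of 2014. Over the ripening change this expansin was not called (log2 change -0.79, SE 0.18, limma adjusted p = 5.13e-05, under the size threshold), and without 2013 it was called lower at -1.05. Over all cultivar-seasons its step from onset to veraison was 0.73 (SE 0.18), also under the size threshold, and 1.46, past it, without 2014.

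The polygalacturonase was the lowest of the 6 in green berries. It was listed at 0 or up to 4.75 RPKM before onset (median 0.201). At day 21 it had a median of 127 RPKM, from 90.5 to 277, and no library of one window reached those of the other. The log2 change was 6.67 (SE 0.25, limma adjusted p = 1.82e-57), ranking 27 among all genes. From veraison to day 21 the mean was lower in Cabernet Sauvignon and higher in Pinot noir. In Cabernet Sauvignon the mean was 236 ± 59.3 RPKM at veraison, 109 ± 14.2 at day 21 and 128 ± 30.2 at day 42 (SD, n = 9 each). In Pinot noir it was 167 ± 29.7, 206 ± 41.1 and 268 ± 37.4 RPKM. The change from veraison to day 21 was not itself compared between the cultivars by a test.

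The pectate lyase was already expressed in green berries, with a median of 14.6 RPKM before onset, from 6.53 to 185. At day 21 it had a median of 299.8 RPKM, from 111 to 412. These windows overlapped through 1 library, replicate 3 of Pinot noir 2013 at day -14, at 185 RPKM. The log2 change was 3.65 (SE 0.22, limma adjusted p = 4.72e-35). Its highest window was veraison, at 615 ± 105 RPKM (SD, n = 18).

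The rise was under way by the sampling before veraison, and in some cases it had begun earlier. In Pinot noir of 2013 the chromosome 13 expansin had its lowest mean, 5.75 RPKM, at day -20. At day -14, in the before-onset window, its mean log2(RPKM + 1) was already 6.08, a scale that cannot be set beside the RPKM of day -20. On that log2 scale it was at 0.628 to 4.38 before onset in the other cultivar-seasons. In Cabernet Sauvignon of 2014 and Pinot noir of 2012 its lowest mean was at the before-onset sampling. Between the before-onset and the onset window, 5 of the 6 genes were called higher, against 1.35% of all genes, and the median log2 change was 3.84 over the 6 genes and -0.04 over all genes. XTH rose by 6.11 (SE 0.33, limma adjusted p = 2.51e-38), the largest log2 change of any gene tested. The chromosome 13 expansin rose by 5.03 (SE 0.29), the polygalacturonase by 4.29 (SE 0.25), the pectate lyase by 3.40 (SE 0.22) and the chromosome 17 expansin by 2.47 (SE 0.22), ranking 3, 7, 14 and 35. Only the chromosome 14 expansin did not pass (-0.13, SE 0.18, adjusted p = 0.593). Its mean joins opposite changes. It was called lower in Pinot noir of 2012 (-1.28, SE 0.45) and higher in Pinot noir of 2013 (1.81, SE 0.45), where 1.66% of all genes were called higher. For 2012 the share called lower is not given here. In the other cultivar-seasons it was not called. With the 6 cultivar-season means as replicates, 0 of the 6 genes passed in limma (adjusted p from 0.0608 to 0.0881 for the 5). XTH, with the largest change of any gene, was thus also not called. The share of all genes called in this setting is not given here.

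Within single cultivar-seasons the onset sampling was called higher than before onset for XTH, the chromosome 13 expansin, the polygalacturonase and the pectate lyase in 6 of 6 cases. For the chromosome 17 expansin it was in 5 of 6. The onset sampling was the next after the before-onset one, so no earlier sampling could have been called first. The share of all genes called higher at these samplings was, from 2012 to 2014, 2.28%, 2.95% and 1.32% for Cabernet Sauvignon. For Pinot noir it was 4.28%, 1.66% and 1.13%. In Cabernet Sauvignon of 2014 that expansin was first called at day 0. Of these 29 onset calls, 23 held with any 1 library of the onset sampling left out, a setting added after the data had been seen. The 6 that were lost were all of 2014. In Cabernet Sauvignon they were lost without replicate 2, for the chromosome 13 expansin (log2 change 1.91), the polygalacturonase (0.63) and the pectate lyase (0.86). In Pinot noir they were lost without replicate 3, for XTH (1.41), the chromosome 17 expansin (0.58) and the polygalacturonase (0.40).

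The 3 libraries of an onset sampling differed widely in the rising genes, and these genes differed together. In Cabernet Sauvignon of 2012 at day -9, XTH was at 1657, 33.4 and 495 RPKM in replicates 1, 2 and 3. The polygalacturonase was at 132, 0.455 and 47.4 RPKM, and the pectate lyase at 375, 116 and 217. Both were highest in replicate 1 and lowest in replicate 2, as XTH was, and the sugar content of these berries was 2.48, 0.61 and 1.57 g/100 ml in the same order.

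In Cabernet Sauvignon of 2014 at day -7, replicate 2 stood apart, with XTH at 586 RPKM against 9.43 and 19.6 in replicates 1 and 3. Its sugar content was 0.73 g/100 ml, against 0.52 and 0.44. In Pinot noir of 2014 at day -6 the library that stood apart was replicate 3, with XTH at 605 RPKM against 2.43 and 4.05. Its sugar content of 1.46 g/100 ml was close to the 1.48 of replicate 2, which had low XTH.

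Over the 6 onset samplings, the 5 rising genes were all highest in the same library in 4 and all lowest in the same library in 3. The library highest in XTH was also highest in sugar in 3 of the 6, and the library lowest in XTH was lowest in sugar in 4. The ratio of the highest to the lowest library for XTH had a median of 27.4 at onset, from 2.55 to 249, and of 1.42 at veraison, from 1.05 to 1.91. The chromosome 14 expansin, not called in this step over all cultivar-seasons, had a median ratio of 1.30 at onset. Replicates also differed before onset in Cabernet Sauvignon of 2012: at day -18 XTH was at 50.1, 0.341 and 1.07 RPKM. Replicate 1, the highest at day -18, had the lowest sugar of the 3 at that day, 0.41 g/100 ml against 0.51 and 0.43.

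**Figure D2:**
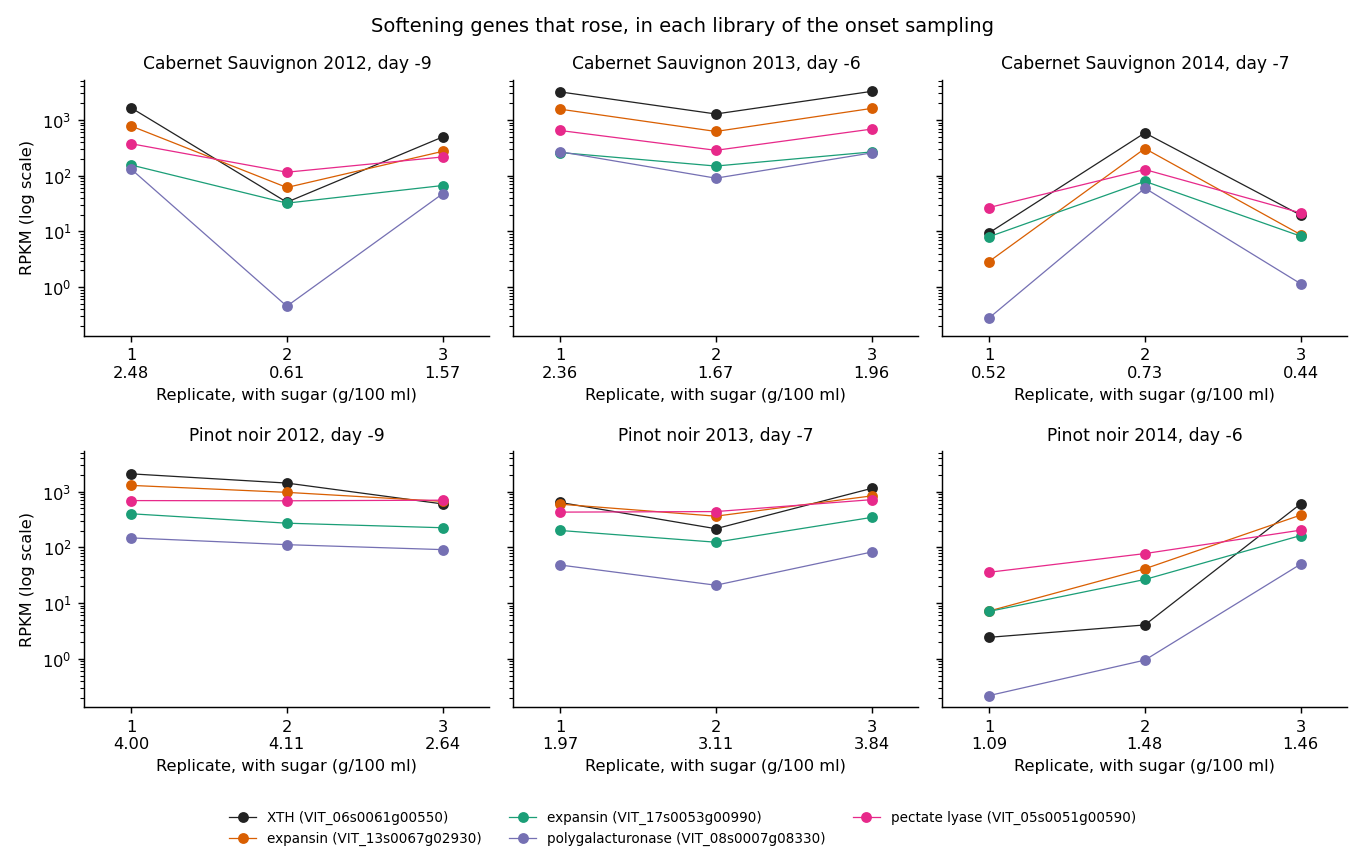
RPKM on a log scale of the 5 softening genes that rose, in each of the 3 libraries of the onset sampling of each cultivar and season. The sugar content of the berries stands under each replicate number, and lines join the values of a gene. In Cabernet Sauvignon 2014 and Pinot noir 2014 a single library holds high values of all 5 genes, and XTH there is at 586 and 605 RPKM.

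Unlike others of their labelled day, 2 libraries held high values of several of these genes. At day -28 of Pinot noir 2012, replicates 1 and 3, which resembled later berries over all genes, held the pectate lyase at 84.0 and 71.7 RPKM against 14.1 in replicate 2. They held the chromosome 13 expansin at 62.0 and 54.0 RPKM against 2.62. The chromosome 14 expansin was the reverse, at 14.6 and 17.0 RPKM in these 2 libraries and 71.0 in replicate 2. At the next sampling, day -18, the chromosome 13 expansin was at 2.05 to 3.49 RPKM in all 3 libraries.

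To order the genes, the day on which each crossed the midpoint between its before-onset level and its highest later level (up to day 42, on the log2 scale) was read by linear interpolation between samplings. The medians over the 6 cultivar-seasons lay close together. They were day -9.53 for the pectate lyase, -9.13 for the chromosome 17 expansin, -8.95 for XTH, -8.65 for the chromosome 13 expansin and -8.61 for the polygalacturonase. Each had an SD of 2.85 to 3.61 days over cultivar-seasons, larger than the distances between the medians. The chromosome 14 expansin rose by at least 1 in only 3 cultivar-seasons, with a median midpoint of day -4.85. Read on the linear RPKM scale, the medians came later, at day -4.18 for XTH, -4.58 for the chromosome 13 expansin and -4.75 for the polygalacturonase, with the order of these 3 reversed.

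Within a cultivar-season the genes were compared in pairs. The pectate lyase was earlier than the chromosome 17 expansin in 6 of 6 cultivar-seasons, by a mean of 0.954 ± 0.657 days (SD, n = 6; exact two-sided sign-flip permutation p = 0.031, the smallest that 6 allow, adjusted p = 0.375 over the 15 pairs). It was earlier than the polygalacturonase in 5 of 6, by 1.11 ± 1.19 days (exact permutation p = 0.0938, adjusted p = 0.375). XTH and the chromosome 13 expansin differed by 0.160 ± 0.871 days (exact permutation p = 0.875). Of the 15 pairs, 1 had an unadjusted p under 0.05 and 0 passed after adjustment. With so few cultivar-seasons a pass would have needed every pair without the chromosome 14 expansin at its smallest p, so these tests could hardly have shown an order and say nothing of its stability. Samplings around onset were 6 to 9 days apart, so an order finer than that rests on the interpolation.

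**Figure D3:**
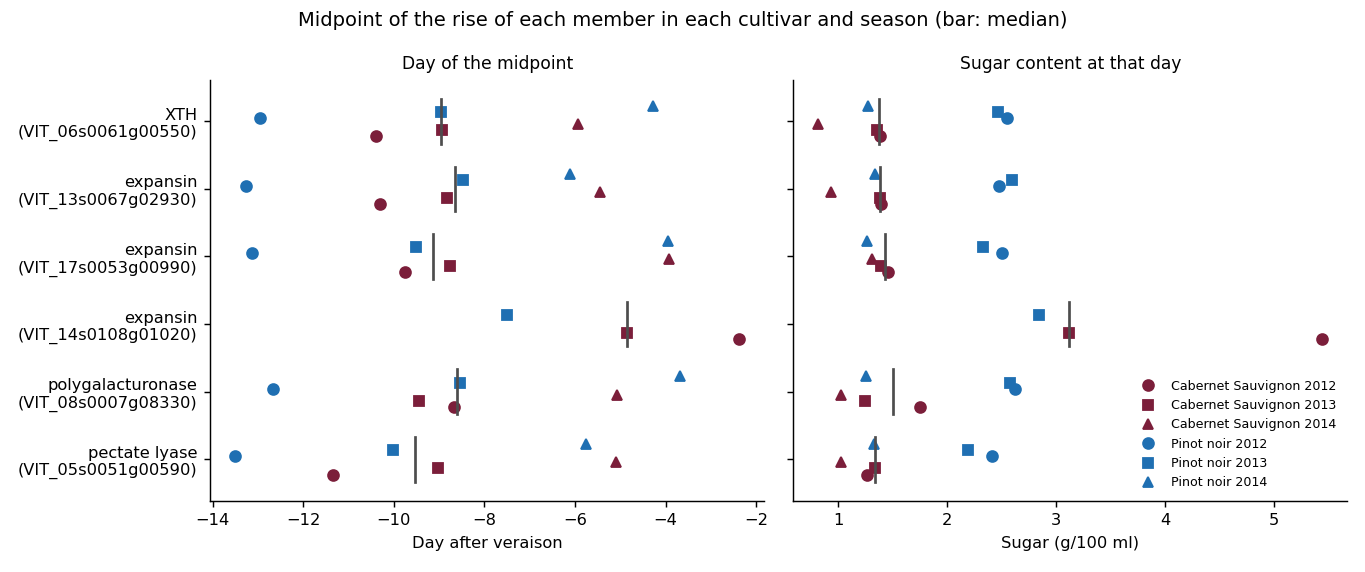
Day after veraison on which each softening gene crossed the midpoint of its rise (left) and sugar content of the berries at that day (right), with 1 point per cultivar-season and a bar at the median. Within a cultivar-season the 5 rising genes crossed within a few days of each other, and the seasons lie further apart, with 2012 earliest and 2014 latest in Pinot noir.

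The midpoints differed between seasons. For XTH they fell at day -12.9, -8.96 and -4.27 in Pinot noir of 2012, 2013 and 2014, and at day -10.4, -8.93 and -5.94 in Cabernet Sauvignon. The sugar content at the XTH midpoint was 2.55, 2.47 and 1.28 g/100 ml in these Pinot noir seasons. In Cabernet Sauvignon it was 1.38, 1.36 and 0.819 g/100 ml. The 2014 midpoints thus came at the lowest sugar of each cultivar and nearest to the labelled veraison.

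**Figure D4:**
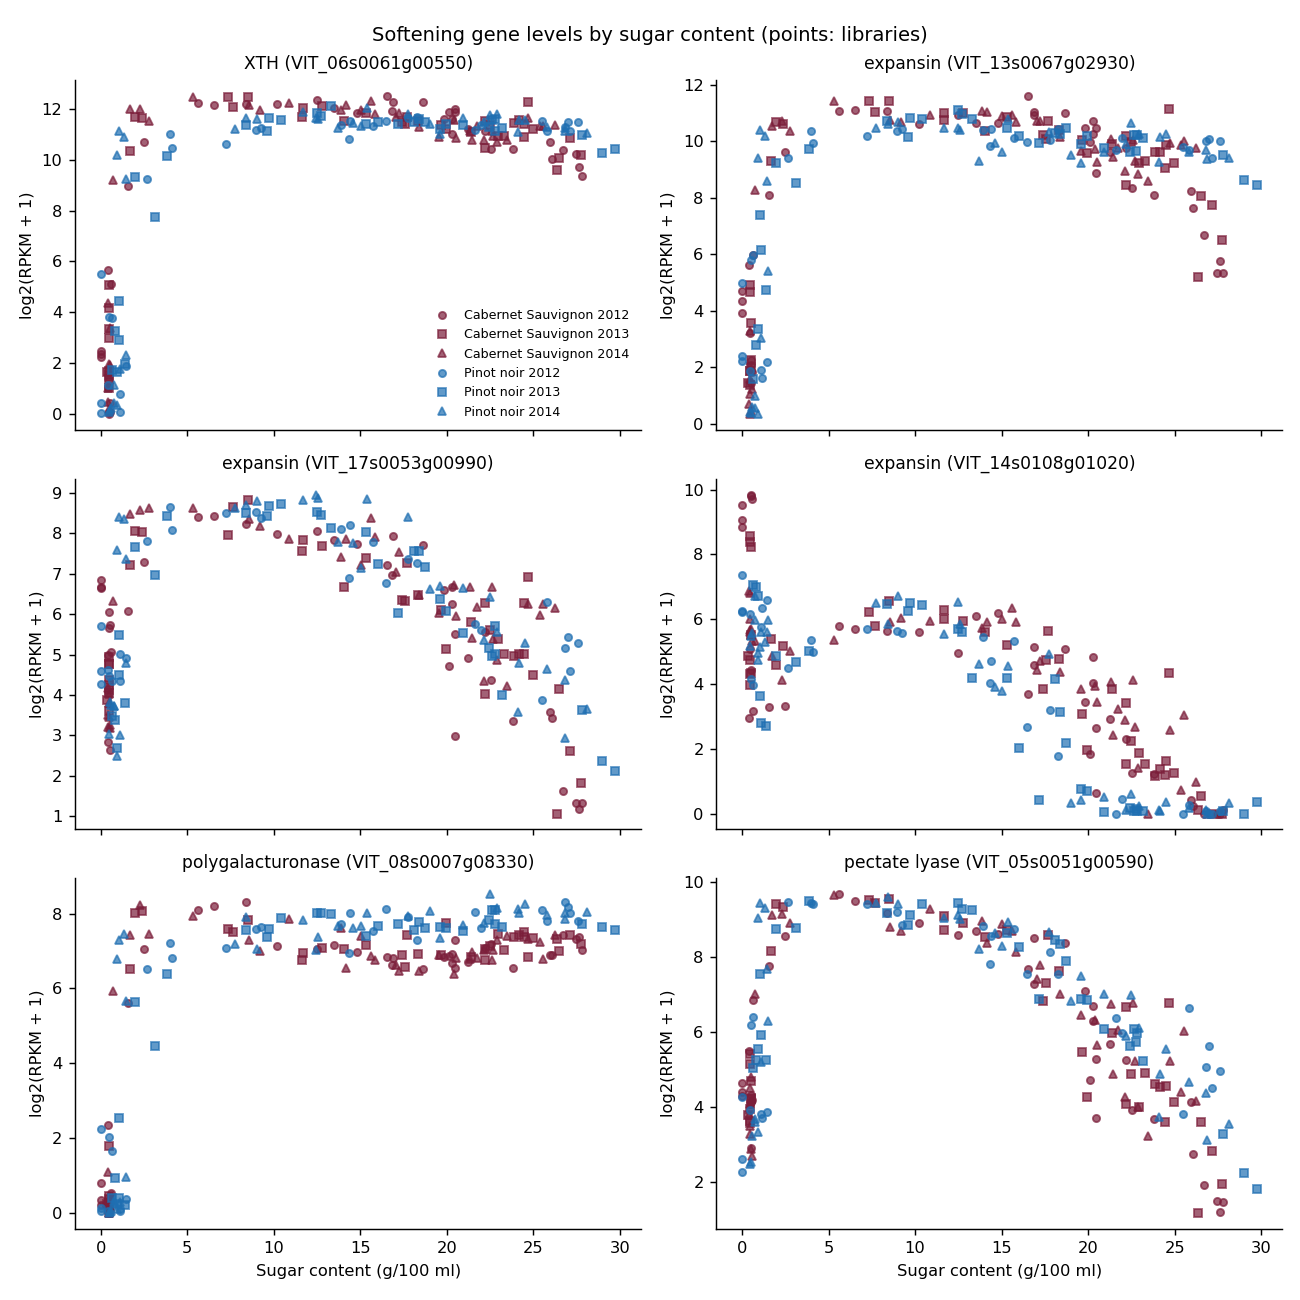
Level of each softening gene, as log2(RPKM + 1), against the sugar content of the berries in g/100 ml, with 1 point per library and colours and symbols for cultivar and season. The median sugar content at the midpoint of the rise was 1.34 g/100 ml for the pectate lyase and 1.37 for XTH, at the far left of each panel.

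From onset to veraison the same 5 genes were called higher, against 1.44% of all genes (median log2 change 2.33 over the 6 genes, -0.12 over all genes). XTH rose by 3.43 (SE 0.33, limma adjusted p = 1.84e-18), the polygalacturonase by 2.77 (SE 0.25) and the chromosome 13 expansin by 2.74 (SE 0.29). The chromosome 17 expansin rose by 1.91 (SE 0.22) and the pectate lyase by 1.42 (SE 0.22). All 5 values were larger in 2014. Over 2012 and 2013 alone XTH rose by 2.03, the polygalacturonase by 1.63, the chromosome 13 expansin by 1.53 and the chromosome 17 expansin by 1.02, the pectate lyase, at 0.50, was not called, and the chromosome 14 expansin, at 1.46, was. By cultivar-season, 0 of the 5 genes were called in limma in Cabernet Sauvignon of 2013 and in Pinot noir of 2012. The shares of all genes called in those single steps are not given here. With cultivar-season means as replicates the pectate lyase was not called (limma adjusted p = 0.0790), and with the 2014 samplings moved 1 later neither it (0.37) nor the chromosome 17 expansin (0.75) was.

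From veraison to day 7 to 11, 0 of the 6 genes were called in limma, against 1.05% of all genes, and 0 had an unadjusted p under 0.05. Changes ran from -0.21 to 0.25 on the log2 scale, with a median of -0.05 over the 6 genes and -0.09 over all genes.

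Late in ripening the genes parted. Between day 21 and day 42, 3 of the 6 were called lower and 0 higher, against 3.32% and 0.947% of all genes (median log2 change -1.01 over the 6 genes and 0.02 over all). The pectate lyase fell from 285 ± 84.6 to 62.2 ± 46.5 RPKM (SD, n = 18 each; log2 change -2.41, SE 0.22, limma adjusted p = 1.16e-19). The chromosome 17 expansin fell from 179 ± 71.1 to 57.0 ± 33.6 RPKM (log2 change -1.73, SE 0.22, adjusted p = 4.93e-12). The chromosome 14 expansin fell from 25.3 ± 21.7 to 3.69 ± 4.88 RPKM (log2 change -2.77, SE 0.18, adjusted p = 8.63e-30), the 15th lowest change of all genes. The pectate lyase and the chromosome 14 expansin were called lower in 6 of 6 cultivar-seasons, for which the shares of all genes are not given here. The chromosome 17 expansin had a negative change in 6 of 6 and was called in 5, the exception being Cabernet Sauvignon of 2013 (-0.76), whose day 43 libraries are in the other library set than its day 22 libraries.

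XTH (-0.24, SE 0.33), the chromosome 13 expansin (-0.30, SE 0.29) and the polygalacturonase (0.30, SE 0.25) were not called in that step. At day 42 XTH still had a mean of 2864 RPKM and ranked 28 among all genes. For the last sampling of each cultivar-season, the mean was set against the highest mean from the onset sampling on. The polygalacturonase was at 48.9 to 90.8% of it and XTH at 24.0 to 97.9%. The pectate lyase was at 0.466 to 3.10%, the chromosome 17 expansin at 0.792 to 13.2% and the chromosome 14 expansin at 0.0331 to 0.822%. The chromosome 13 expansin lay between, at 4.49 to 67.0%. For the chromosome 14 expansin the highest mean of all samplings came before onset, except in Pinot noir of 2014. In Cabernet Sauvignon of 2012 it was 884 RPKM at day -28, against 63.0 at day 11, the value used here.

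The long Cabernet Sauvignon season of 2012 was sampled up to day 80. At day 63 the pectate lyase was at 25.3, 11.8 and 38.1 RPKM, and at day 74 at 1.28, 2.78 and 1.74 (log2 change -3.04, SE 0.54, limma adjusted p = 7.45e-07; 3.73% of all genes called lower). The chromosome 13 expansin went from 1009, 269.7 and 1404 RPKM to 52.9, 101 and 39.4 over the same days (log2 change -3.58, SE 0.70, adjusted p = 6.41e-06). The polygalacturonase was at 116, 92.3 and 92.8 RPKM at day 63 and at 164, 170 and 129 at day 74, with no call.

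The day 80 samples did not continue these falls. The pectate lyase was at 16.6, 12.0 and 1.81 RPKM, called higher than at day 74 (log2 change 1.59, SE 0.54, limma adjusted p = 0.0412; 0.611% of all genes called higher). The chromosome 13 expansin was at 303, 464 and 39.7 RPKM, with no call (adjusted p = 0.147). For both genes replicate 3 lay within the range of the day 74 values and the other replicates above them. The sugar content at day 80 was 25.9, 20.5 and 27.4 g/100 ml, and at day 74 it was 26.7 to 27.8, so the replicates high in these genes were also lower in sugar than every day 74 sample.

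Replicates also differed at day 42. At that day of Cabernet Sauvignon 2012 the pectate lyase was at 37.3, 205 and 136 RPKM, and XTH at 2226, 5863 and 3085 RPKM. Replicate 2, the highest in both, had 16.5 g/100 ml of sugar, against 22.2 in replicate 1, the lowest in both, and 19.8 in replicate 3. Of the 30 samplings after day 22, the library highest in pectate lyase was the one lowest in sugar in 16 and the one highest in sugar in 6. For the polygalacturonase these counts were 11 and 10. They were 15 and 9 for XTH and 15 and 10 for the chromosome 13 expansin. For the chromosome 17 expansin they were 11 and 8, and for the chromosome 14 expansin 10 and 10. The pectate lyase thus had the most uneven counts of the 6 genes, and all these counts are descriptions.

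The cultivars were compared as Pinot noir minus Cabernet Sauvignon, over 3 seasons with 9 libraries a side. The p-values of these comparisons leave out the spread between seasons, and cultivar-season means were not used as replicates for them. Before onset and at onset 0 of the 6 genes were called in limma, against 5.31% and 6.94% of all genes. At an unadjusted p under 0.05 there were 1 and 3, and at an adjusted p under 0.05 there were 0 and 2. The 2 at onset were under the size threshold: the chromosome 17 expansin (0.92, SE 0.31, limma adjusted p = 0.00863) and the pectate lyase (0.90, SE 0.31, adjusted p = 0.0106). At veraison 1 was called, against 6.88% of all genes. It was XTH, at a median of 2231 RPKM in Pinot noir, from 1171 to 3148, and of 4541 in Cabernet Sauvignon, from 2923 to 5719.7 (log2 difference -1.09, SE 0.46, adjusted p = 0.0390). The ranges overlapped, and the call was lost without any single replicate number or season.

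In ripening berries the chromosome 14 expansin was lower in Pinot noir. At day 21, where 9.31% of all genes were called, it had a median of 8.15 RPKM in Pinot noir, from 3.05 to 23.6, and of 32.7 in Cabernet Sauvignon, from 13.3 to 79.9. The ranges overlapped over all seasons but not within any season. The log2 difference was -1.91 (SE 0.26, limma adjusted p = 8.70e-11). At day 42 (10.6% of all genes called) the Pinot noir libraries were at 0 to 0.273 RPKM with a median of 0.0565, and those of Cabernet Sauvignon at 1.30 to 14.2 with a median of 8.39. These did not overlap (log2 difference -2.66, SE 0.26, adjusted p = 9.25e-18).

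Sugar at day 42 was higher in Pinot noir in 2012 (26.5 against 19.5 g/100 ml) and 2014 (23.9 against 20.9), but not in 2013 (22.9 against 23.8). In 2013 the 3 Pinot noir libraries held 0.0565, 0.0544 and 0.0598 RPKM of this expansin and the 3 of Cabernet Sauvignon 3.68, 1.30 and 2.06. These Cabernet Sauvignon libraries, of day 43, are in the library set of 2014, and those of Pinot noir are in the other set. The part of sugar in the cultivar difference was not tested. The cultivars also differed in the ripening change of this gene itself (log2 difference of changes -1.92, SE 0.37, limma adjusted p = 4.03e-06; 8.60% of all genes called). That difference was -0.96, under the size threshold, without 2012.

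The polygalacturonase differed the other way. At day 42 it had a median of 274 RPKM in Pinot noir, from 198 to 315, and of 114 in Cabernet Sauvignon, from 82.7 to 179, with no overlap (log2 difference 1.08, SE 0.35, limma adjusted p = 0.00502). At day 21 the medians were 202 and 111 RPKM, with a log2 difference of 0.90 (SE 0.35, adjusted p = 0.0220) that did not reach the size threshold. The day 42 difference lies near that threshold, at 0.89 without 2014 and 0.91 with the 2014 samplings moved 1 later. Its call was also lost without replicate 1 (1.06) and with pseudocount 0.1 (1.09). Of 17 alternatives, 11 kept the call. XTH, with day 42 medians of 2983 and 2648 RPKM, showed a log2 difference of 0.06 (SE 0.46). The chromosome 17 expansin differed by -0.96 at day 42 (SE 0.31, limma adjusted p = 0.00505), under the size threshold. In 12 of 17 alternatives it stayed uncalled.

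**Figure D5:**
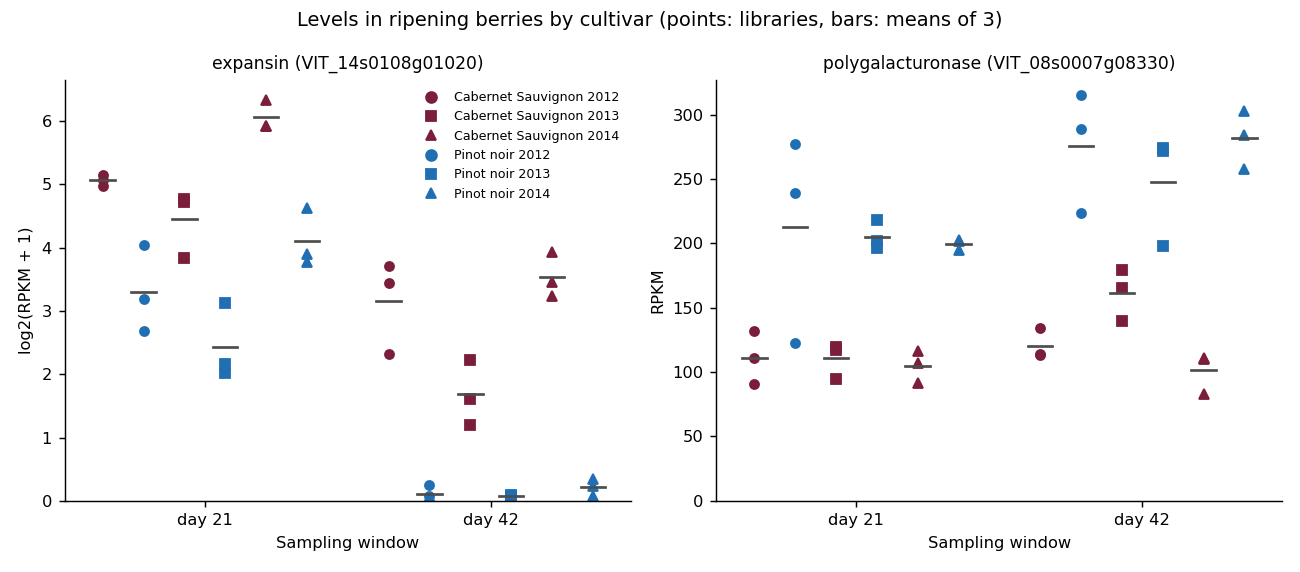
Level of the chromosome 14 expansin, as log2(RPKM + 1), and of the polygalacturonase, in RPKM, at day 21 and day 42. Points are libraries, bars are means of 3, colours are cultivars and symbols are seasons. At day 42 all 9 Pinot noir libraries lie below the 9 of Cabernet Sauvignon for the expansin and above them for the polygalacturonase.

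The steps of the rise were also tested for a difference between cultivars: 0 of the 6 genes were called for the onset step (1.05% of all genes) and 0 for the veraison step (1.55%) in limma, with 0 and 3 at an unadjusted p under 0.05.

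Seasons differed in when, by labelled day, the rise took place. From before onset to onset, XTH rose by a mean of 4.24 in 2014 and of 7.04 over 2012 and 2013 (log2; difference -2.80, SE 0.69, limma adjusted p = 5.59e-04). That call was lost with the compared libraries alone in the fit (SE 1.37, adjusted p = 0.113) and without replicate 1 (-1.76, adjusted p = 0.162). From onset to veraison it rose by 6.24 in 2014 and by 2.03 in the earlier seasons (difference 4.21, SE 0.69, adjusted p = 8.92e-07). For the onset step 4 of the 6 genes were called lower in 2014 (1.86% of all genes), and for the veraison step 5 were called higher (0.952%) and the chromosome 14 expansin lower (-2.19, SE 0.39; 0.910%). For the whole ripening change 4 were called higher in 2014 (2.66%), and 0 in limma without 2013 (XTH 0.75, pectate lyase 0.55).

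Sugar moved with these differences. At labelled day 0 its mean was 2.26 and 1.11 g/100 ml in Cabernet Sauvignon and Pinot noir of 2014, against 6.83 to 9.23 in the 4 earlier cultivar-seasons. With the 2014 samplings moved 1 later, 0 of the 6 genes were called for the onset step and 1 for the veraison step, and XTH differed by -1.48 in the latter. The move also made the day -7 and day -6 samplings of 2014 its before-onset samplings. By then XTH had already risen by a mean of 4.24 in 2014. From this higher baseline, 4 genes were called lower in 2014 for the ripening change: XTH (-2.30), the polygalacturonase (-1.55), the pectate lyase (-1.22) and the chromosome 14 expansin (-1.07). These values therefore do not compare the whole rise of 2014 with that of the earlier seasons. In Pinot noir of 2014 at day 0, at a mean of 1.11 g/100 ml, the 3 libraries already held XTH at 1171, 1920.1 and 2231 RPKM.

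The 6 genes fell into groups by likeness of their course, measured as Pearson's correlation of log2(RPKM + 1) over the 73 group means among 13026 genes. The points share cultivar, season and stage, so these values are descriptions. XTH and the polygalacturonase correlated at 0.98, and each ranked among the first 2 of all genes for the other. XTH and the chromosome 13 expansin correlated at 0.97. The pectate lyase and the chromosome 17 expansin formed a second pair at 0.93, and their correlations with XTH were 0.52 and 0.51. By contrast, the chromosome 14 expansin was negatively related to XTH (-0.46) and to the polygalacturonase (-0.53).

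Outside the 6 genes, the IDs most like XTH were VIT_05s0049g00510 and VIT_05s0049g00760 (0.98 each), which were also those most like the polygalacturonase (0.97 each). Their mean levels went from 4.01 and 38.2 RPKM before onset to 1977 and 21395 at day 21. For the chromosome 13 expansin they were VIT_19s0177g00230 and VIT_17s0000g01930 (0.95 each). VIT_12s0034g01160 was among the first 2 for both the pectate lyase (0.95) and the chromosome 17 expansin (0.92), beside VIT_18s0122g00850 (0.96) and VIT_17s0000g03280 (0.92). For the chromosome 14 expansin they were VIT_12s0059g01590 (0.95) and VIT_02s0025g04550 (0.94). The files do not pair these IDs with names.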

How the data were processed

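Pericarp RNA of 73 groups of 3 samples was sequenced from unstranded TruSeq libraries. The deposited values are RPKM per gene, made by the authors; the submitters' processing notes name TopHat2 2.0.6 and Cufflinks 2.0.2, with no role given, and the genome build and the handling of reads shared by related genes are not given in the sources used here. No read counts were used, so depth is unknown and no counting intervals are given.

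Values were analysed as log2(RPKM + 1) with limma 3.58.1 in R 4.3.3, in 1 fit across all genes (146 residual degrees of freedom), for 21425 genes with at least 1 RPKM in at least 3 libraries. Windows were contrasted as means over the 6 cultivar-seasons. Cultivar and season differences used the same fit, and midpoints were compared by exact sign-flip permutation over cultivar-seasons. The script was tested on simulated data. The 6 genes are always named, and beside them only the 2 IDs most like each. The genes, windows and lists were chosen with earlier results of these data known. Alternatives covered the pseudocount, filter, scaling, replicates, seasons and libraries; leaving out Cabernet Sauvignon 2013, its day -13 replicate 1, or each onset library was chosen after seeing the data. No sequence or family annotation matched the gene IDs, so other members of these families and markers of seed or other tissues were not checked here.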

Additional observations from a re-analysis of the deposited data

Results flagged for a closer look

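In all, 15 differences between groups in how the softening genes changed passed limma's test of the difference itself, on the scale log2(RPKM + 1). Each gene was tested for the ripening change, the onset step and the veraison step, between cultivars and between seasons. For the cultivar difference of the ripening change, 8.60% of all genes were called. The first was between cultivars: the ripening change of the chromosome 14 expansin was lower in Pinot noir than in Cabernet Sauvignon by a log2 difference of -1.918.

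The others were between 2014 and the mean of 2012 and 2013, a difference that cannot be told apart from the library set. Of all genes, 2.66% were called higher for the ripening change and 1.86% lower for the onset step. For the veraison step 0.952% were called higher and 0.910% lower. The ripening change differed by 1.920 for XTH, 3.161 for the chromosome 13 expansin, 1.453 for the chromosome 17 expansin and 1.623 for the pectate lyase. The onset step differed by -2.802 for XTH, -2.005 for the chromosome 17 expansin, -3.111 for the polygalacturonase and -1.711 for the pectate lyase.

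The veraison step differed by 4.213 for XTH, 3.645 for the chromosome 13 expansin, -2.194 for the chromosome 14 expansin and 2.683 for the chromosome 17 expansin. It differed by 3.432 for the polygalacturonase and 2.743 for the pectate lyase. Sugar content at the labelled day 0 was lower in 2014 in both cultivars, and its part in these differences was not tested beyond moving the 2014 samplings 1 later. With that move 0 of the 6 genes were called for the onset step and 1 for the veraison step. The ripening change of XTH then differed by -2.30, with the onset samplings of 2014 as its baseline.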

How the results depend on the processing

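Of 96 results for single genes, 52 kept their call in every alternative. Of 1704 values under alternatives, 1605 kept their call, 47 lost it and 39 gained it. The other 13 changed sign with a call in the main or the alternative fit. Values that changed sign with no call in either are counted among those that kept their call. The number of the 6 genes called went from 5 to 0 for the onset step with cultivar-season means as replicates. For Pinot noir minus Cabernet Sauvignon it went from 0 to 1 before onset (pseudocount 0.1, without 2012, without 2014, 2014 moved, and the replicate block) and from 0 to 2 (without 2012) or 4 (without 2013) at onset. At veraison it went from 1 to 0 (pseudocount 0.1, any season left out, 2014 moved, or a test against 0.5). At day 21 it went from 1 to 2 (median-ratio scaling, 2014 moved), and at day 42 from 2 to 1 (pseudocount 0.1, without 2014, test against 0.5). For the cultivar difference of the ripening change it went from 1 to 2 (median-ratio scaling, 2014 moved, compared libraries alone) or 0 (without 2012). For that of the onset step it went from 0 to 2 (without 2013), and for that of the veraison step from 0 to 1 (pseudocount 5, quantile normalization, without 2013). For 2014 against earlier seasons it went from 4 to 0 (without 2013) or 1 (test against 0.5) for the ripening change (with 2014 moved it stayed at 4, all lower in 2014 in place of higher), and with 2014 moved from 4 to 0 for the onset step and from 6 to 1 for the veraison step. With 2014 moved, the baseline of its ripening change was its onset sampling, when the rise had begun. The causes were not tested.

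Leaving out 1 replicate number at a time gave 0 to 1 genes before onset, 0 to 2 at onset, 0 in each case at veraison, 1 to 2 at day 21 and 2 to 3 at day 42 for the cultivars. It gave 1 to 2 for the cultivar difference of the ripening change and 0 to 1 for that of the veraison step. It gave 2 to 4 for the season difference of the ripening change and 1 to 5 for that of the onset step.

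Some values changed sign with a call in the main or the alternative fit. They were the cultivar differences of the chromosome 14 expansin before onset (-1.03) and of the polygalacturonase at onset (-1.10) without 2012, and season differences with 2014 moved. The latter were, for the ripening change, -2.30 for XTH, -0.95 and -0.030 for the chromosome 13 and 17 expansins, -1.55 for the polygalacturonase and -1.22 for the pectate lyase. For the onset step it was 0.56 for the chromosome 17 expansin. For the veraison step they were -1.48 for XTH, -1.03 and -0.81 for the chromosome 13 and 17 expansins, -1.68 for the polygalacturonase and -0.39 for the pectate lyase. On the linear RPKM scale the median midpoints moved to day -4.18 for XTH, -4.58 for the chromosome 13 expansin and -4.75 for the polygalacturonase. With the threshold nearer the base of the rise that of the chromosome 14 expansin was day -8.41. Scaling moved the median change of all genes over ripening by 0.34 (quantile) and 0.24 (median-ratio).

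Replicate numbers did not pair samples: same-numbered samples deviated with a mean correlation of -0.0203 to 0.0243 per cultivar-season. With the replicate block, 5, 5, 5, 0 and 3 genes were called in the 5 successive comparisons of windows, as without it, and 1 in place of 0 for the cultivars before onset (XTH, -1.23). At day 42 the cultivar count stayed at 2, but the polygalacturonase (0.92) was lost and the chromosome 17 expansin (-1.13) gained.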
